A study of Sus scrofa with 8 samples.

Results

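The alternative promoters of protein-coding genes were examined in pig embryonic fibroblasts (PEFs), the connective tissue cells grown from 35-day fetuses of Large White pigs. An alternative start was an annotated transcript start of a RefSeq protein-coding gene on chromosomes 1 to 18 and X (build Sscrofa11.1) that lies more than 5 kb downstream of the outermost start of its own gene and more than 5 kb from the outermost start of any other gene. The rule was met by 8021 of 47492 annotated starts, in 2911 of 19487 protein-coding genes. Chromatin immunoprecipitation with sequencing (ChIP-seq) gave 2 replicate libraries each of H3K4me3, H3K27ac and CTCF, 6 in all, from untreated cells with no genetic change or treatment named in the labels. There was thus a single cell condition, and the comparison was made within each library, between the alternative starts and the outermost start of the same genes. The labels do not say whether the replicates came from separate cultures, so the spread between them may be technical. Peak lists held between 37932 and 81164 peaks a library, with no read counts, so that the depth behind each peak is unknown. All 12 fibroblast marker genes examined, among them COL1A1, VIM and PDGFRB, had H3K4me3 and H3K27ac at their outermost start in both replicates, as did 3 of 19 markers of other cell types. Taken singly, H3K4me3 was found in both replicates at 9 of the 19, among them all 4 epithelial markers, and H3K27ac at 5. Of the 2911 outermost starts of genes with an alternative start, 63.4% had both marks in both replicates.

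Many mammalian genes can be transcribed from several promoters, which give proteins with different first exons or place the gene under separate regulation. Trimethylation of histone H3 at lysine 4 (H3K4me3) lies around active and poised transcription starts, above all at those rich in CpG dinucleotides. Acetylation at lysine 27 (H3K27ac) lies at active promoters and also at active enhancers, and CTCF is a zinc finger protein that binds an extended DNA motif and helps to fold chromosomes into loops. A peak at a start shows the mark in the cell population and does not measure transcription from it. In a bulk sample, fewer cells with a mark and less signal per cell cannot be told apart.

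The DNA just upstream of 4 alternative starts that carried H3K4me3, and of the outermost starts of the same genes, which had no H3K4me3 or H3K27ac peak in any library, is shown to let the CpG content be seen. The genes were chosen after their values were seen. NR3C1 makes the glucocorticoid receptor, PALLD the actin-binding protein palladin, VCAN the matrix proteoglycan versican and IL1R1 the receptor of interleukin 1. Each run holds the 120 bases before the start, read 5′ to 3′ along the gene from the Sscrofa11.1 genome, with CpG dinucleotides in capitals, and no run overlaps an annotated exon.
NR3C1 alternative start, chr2:144931485-144931604, strand -: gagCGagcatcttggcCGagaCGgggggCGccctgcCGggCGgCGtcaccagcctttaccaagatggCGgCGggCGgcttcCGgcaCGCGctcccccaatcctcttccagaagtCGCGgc
NR3C1 outermost start, chr2:144956452-144956571, strand -: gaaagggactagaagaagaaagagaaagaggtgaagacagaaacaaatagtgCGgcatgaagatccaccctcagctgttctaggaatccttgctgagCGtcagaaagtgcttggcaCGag
PALLD alternative start, chr14:20756752-20756871, strand -: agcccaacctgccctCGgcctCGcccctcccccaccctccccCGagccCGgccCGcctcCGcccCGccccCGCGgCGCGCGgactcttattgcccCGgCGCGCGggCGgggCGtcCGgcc
PALLD outermost start, chr14:21020126-21020245, strand -: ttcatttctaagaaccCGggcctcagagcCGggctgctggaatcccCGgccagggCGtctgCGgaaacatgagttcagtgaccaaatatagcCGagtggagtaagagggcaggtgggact
VCAN alternative start, chr2:91699300-91699419, strand +: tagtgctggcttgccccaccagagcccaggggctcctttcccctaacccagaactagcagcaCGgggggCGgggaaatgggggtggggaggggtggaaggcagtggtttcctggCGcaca
VCAN outermost start, chr2:91682057-91682176, strand +: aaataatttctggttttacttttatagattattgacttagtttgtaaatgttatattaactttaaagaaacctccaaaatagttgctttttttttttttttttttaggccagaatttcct
IL1R1 alternative start, chr3:52288531-52288650, strand -: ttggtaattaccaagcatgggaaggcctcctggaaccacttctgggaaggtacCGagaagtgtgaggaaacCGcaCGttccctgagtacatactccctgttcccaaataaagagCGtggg
IL1R1 outermost start, chr3:52334735-52334854, strand -: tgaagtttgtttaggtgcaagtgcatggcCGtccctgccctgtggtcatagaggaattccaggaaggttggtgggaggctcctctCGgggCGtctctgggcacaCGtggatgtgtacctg
The run before the alternative start held 15 CpGs in NR3C1, against 3 before the outermost start. In PALLD the counts were 19 and 6. VCAN and IL1R1 show that the pattern was not general, with 3 against 0 CpGs in VCAN and 4 against 4 in IL1R1. The summit of the IL1R1 H3K4me3 peak in replicate 1 lay 1505 bp from the start, so its run is not the sequence at the summit.

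The annotation itself sets the members apart from ordinary gene starts. Their distance from the outermost start ran from 5.005 to 2467.8 kb, with a median of 34.6 kb and quartiles of 14.5 and 82.8 kb. The farthest lay in DMD, the dystrophin gene. A single member was found in 1307 genes and 10 or more in 105, and the most were 33 in SOX6, which encodes a developmental transcription factor. Members of a gene that followed each other within 1 kb were also merged, which left 5168 promoter regions, with 2 or more in 1165 genes. Of the members, 6871 (85.7%) lay in an intron of a transcript that starts further upstream and 1146 (14.3%) in an exon. Only 439 (5.47%) began a transcript of RefSeq's known class against 2.23% of the outermost starts, and the other 7582 rested on computed models alone. A start was called CpG-rich where the 250 bases on each side held a CpG observed/expected ratio above 0.6 and more than 50% G and C. By this measure 1999 members (24.9%) were CpG-rich, against 1683 (57.8%) of the 2911 outermost starts. The median CpG ratio was 0.383 at members and 0.714 at outermost starts. Repeats masked in the genome held 34.0% of the members and 19.9% of the outermost starts. The word TATAAA, searched on the strand of the gene between 20 and 40 bases upstream, was found at 30 members (0.374%), 16 outermost starts (0.550%) and 0.611% of all starts.

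Alternative starts carried each mark less often than the outermost starts of their own genes. A peak of H3K4me3 lay within 1 kb of 3286 members (40.97%) in replicate 1 and 3422 (42.7%) in replicate 2, against 2216 (76.1%) and 2228 (76.5%) of the 2911 outermost starts. The replicates differed far less than the kinds of start. For H3K27ac the members with a peak numbered 3510 (43.8%) and 3589 (44.7%), and the outermost starts 1920 (66.0%) and 1977 (67.9%). CTCF was found at 855 (10.7%) and 1092 (13.6%) members and at 562 (19.3%) and 703 (24.1%) outermost starts. The difference, alternative minus outermost, was -34.5 ± 0.907 percentage points for H3K4me3, -22.7 ± 0.688 for H3K27ac and -9.59 ± 1.34 for CTCF (mean ± SD, n = 2 each). It was negative in all 6 libraries, with a mean of -22.3 percentage points (exact two-sided sign-flip permutation test over libraries, p = 0.03125, the smallest p that 6 libraries can give, and 0.0375 after Benjamini-Hochberg adjustment over 12 such comparisons). That test mixes 3 antibodies and speaks only of the shared direction, and starts of 1 gene or under 1 peak are not independent. All 6 libraries read the same starts, so its p does not measure the spread between starts.

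**Figure D1:**
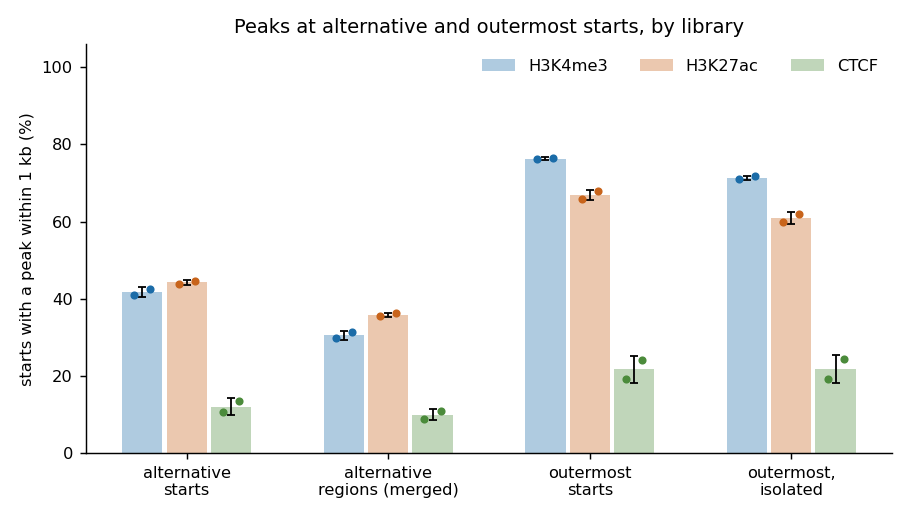
Share of starts with a peak within 1 kb, in percent, for alternative starts, merged alternative regions, outermost starts of the same genes and isolated outermost starts. Bars are means of 2 replicates with the SD, points are libraries, and the alternative starts lie below the outermost starts for each mark.

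Counted in both replicates at once, 3219 members (40.1%) had H3K4me3, 3351 (41.8%) had H3K27ac and 809 (10.1%) had CTCF. Among all annotated starts of protein-coding genes, members included, the same call was made at 71.3% for H3K4me3, at 65.2% for H3K27ac and at 17.5% for CTCF, so the members lay below this background for each. Because clustered starts share a peak, the merged regions were also counted. Of the 5168 regions, 30.6% ± 1.14 had H3K4me3, 35.9% ± 0.534 had H3K27ac and 10.03% ± 1.49 had CTCF (mean ± SD, n = 2). The H3K4me3 peaks at members numbered 1399 and 1470 distinct peaks in replicates 1 and 2, counting the strongest at each start, which were 3.69% and 3.38% of all peaks in those lists. Of the outermost starts, 813 lay within 5 kb of another gene and 2098 were isolated. The isolated outermost starts had H3K4me3 in 71.4% ± 0.539, H3K27ac in 61.0% ± 1.48 and CTCF in 21.8% ± 3.57. The members remained lower in all 6 libraries, with a mean difference of -18.7 percentage points (exact two-sided sign-flip permutation test, p = 0.03125, adjusted p = 0.0375).

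Where peaks were present they were also lower and narrower than at outermost starts. The fold enrichment is the height of a peak over the control as the peak caller gives it, and its scale differs between libraries, so that values are compared within a library. Median H3K4me3 fold enrichment was 39.1 at members and 50.9 at outermost starts in replicate 1, and 19.7 and 23.9 in replicate 2. For H3K27ac the medians were 12.9 and 15.8 in replicate 1 and 14.1 and 18.4 in replicate 2. These medians count a peak once for each start near it. Over distinct peaks the H3K4me3 medians were 31.6 and 50.6 in replicate 1 and 16.6 and 23.9 in replicate 2. Those of H3K27ac were 9.61 and 15.7 in replicate 1 and 10.03 and 18.1 in replicate 2. Distinct H3K4me3 peaks at members had a median width of 2119 and 2276 bp in replicates 1 and 2, against 2705 and 2927 bp at outermost starts. Peaks of all places in these lists were narrower still, with medians of 1185 and 1195 bp. Within genes that had H3K4me3 at both places, the strongest member stood at a median log2 ratio of -0.31 to the outermost start in replicate 1 (798 genes) and -0.24 in replicate 2 (846 genes). The member was nonetheless the higher of the pair in 298 (37.3%) and 307 (36.3%) of these genes. The strongest of all members of a gene was set against 1 outermost start, which favours the members in genes with several.

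Around the alternative regions the histone marks formed a low peak on a raised floor. H3K4me3 peaks covered 5.65% and 6.44% of the positions 3 kb upstream of the 5168 regions in replicates 1 and 2, 22.7% and 23.1% at the start itself, and 23.8% and 24.8% at 500 bp downstream. The isolated outermost starts went from 2.10% and 2.72% at the same upstream distance to 65.3% in both replicates at the start. H3K27ac covered 11.7% and 12.6% of positions 3 kb upstream of the regions and 24.5% and 25.2% at the start, against 5.91% and 5.67% rising to 52.1% and 53.5% at isolated outermost starts. The floor of H3K27ac in gene bodies was thus above that upstream of genes, and its part in the share of members with H3K27ac was not tested. CTCF rose from 1.61% and 2.11% to 2.96% and 4.28% at the regions. At isolated outermost starts it rose from 2.00% and 2.38% to 9.63% and 13.2%, so its floor was not raised at the regions. Summits of the H3K4me3 peaks at members lay downstream of the start in 75.6% and 73.7% of cases, with a median offset of 310 and 420 bp, as at outermost starts (80.6% and 78.3%). CTCF summits lay downstream in 52.6% and 51.3%.

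**Figure D2:**
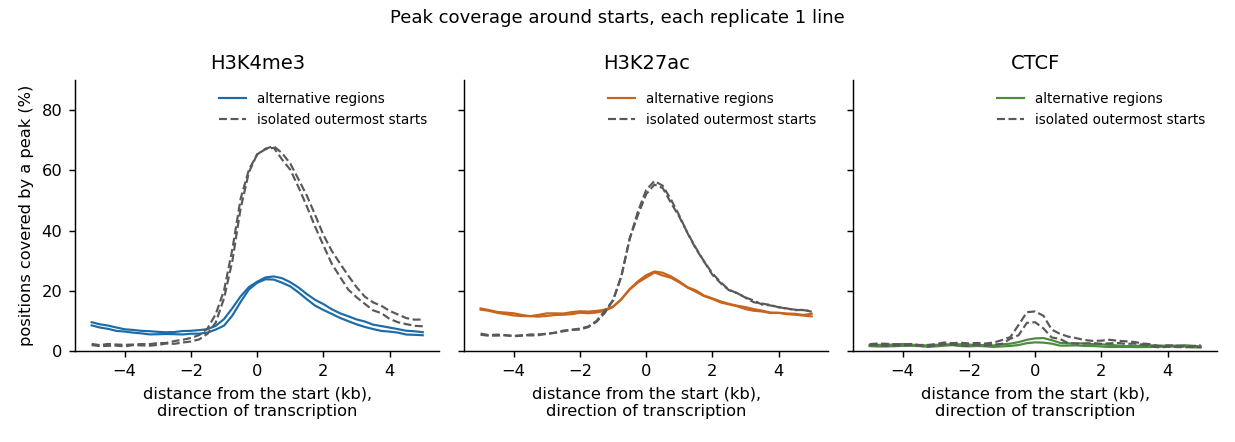
Percent of positions covered by a peak within 5 kb of alternative regions (coloured lines) and isolated outermost starts (dashed), with distance in kb along the direction of transcription and 1 line per replicate. H3K4me3 and H3K27ac rise at both kinds of start and reach 23.9% to 26.1% at alternative regions against 55.2% to 67.4% at isolated outermost starts in replicate 1.

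Beyond 5 kb, the share of members with H3K4me3 did not fall steadily with the distance from the outermost start. Starts that lie 1 to 5 kb downstream are no members, and they had H3K4me3 in 76.4% ± 0.399, close to the outermost starts. At isolated outermost starts, H3K4me3 peaks still covered 60.2% and 62.2% of the positions 1 kb downstream in replicates 1 and 2. How many of the 1 to 5 kb starts were counted through the peak of the outermost start itself was not tested. Among members, H3K4me3 was found at 44.4% ± 0.899 of those 5 to 10 kb away, 40.9% ± 1.00 of those 20 to 50 kb away, 36.3% ± 2.19 of those 100 to 200 kb away and 44.5% ± 2.29 of those over 200 kb away. H3K27ac was found at 48.3% ± 1.07 of those at 5 to 10 kb, 36.9% ± 0.812 of those at 100 to 200 kb and 38.4% ± 0.264 of those over 200 kb away. CTCF ranged from 10.1% ± 1.00 to 14.2% ± 3.87 over the distance classes. The members within 20 kb and those over 100 kb away differed by 4.18 percentage points over the libraries, higher near the outermost start in 5 of 6 libraries, which missed the threshold (exact permutation test, p = 0.0625, adjusted p = 0.0682). At the edge of the rule, the 368 members 5 to 6 kb downstream had H3K4me3 in 47.8% and 49.5% in replicates 1 and 2, and the 311 excluded starts at 4 to 5 kb, equally far from other genes, in 55.3% and 57.6%. At the other edge, the 143 members 5 to 6 kb from another gene had 50.3% and 51.0%, and the 70 excluded starts 4 to 5 kb from another gene had 58.6% in both.

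**Figure D3:**
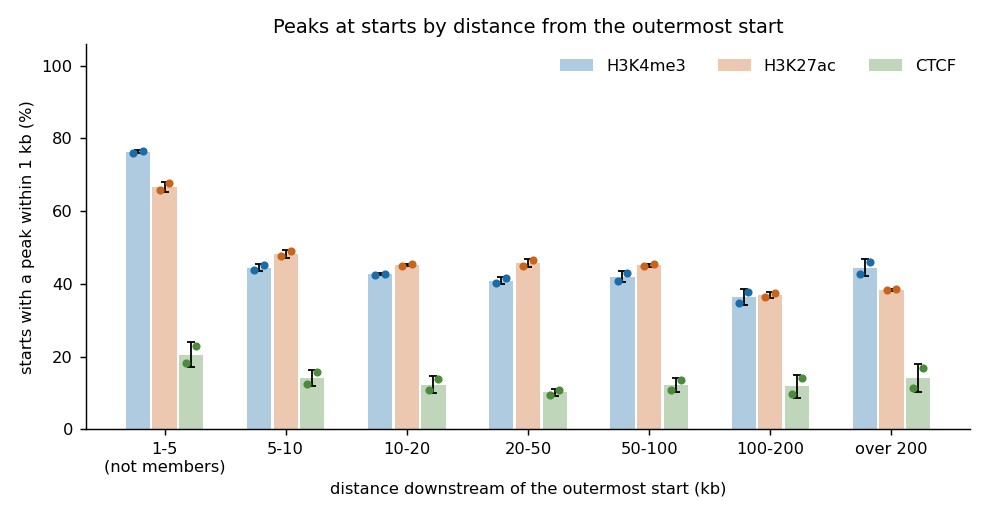
Share of starts with a peak within 1 kb, in percent, by distance downstream of the outermost start in kb. Bars are means of 2 replicates with the SD and points are libraries. H3K4me3 stands at 76.4% for the 1 to 5 kb starts, which are no members, and between 36.3% and 44.5% in all classes of members.

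Base composition went with larger differences between members than distance did. CpG-rich members had H3K4me3 in 90.7% ± 0.0354, H3K27ac in 78.6% ± 0.955 and CTCF in 24.6% ± 4.17 (mean ± SD, n = 2). The CpG-poor members had 25.6% ± 1.59, 32.8% ± 0.611 and 7.996% ± 1.40. The CpG-rich members were higher in all 6 libraries, by a mean of 42.5 percentage points (exact two-sided sign-flip permutation test, p = 0.03125, adjusted p = 0.0375). Within the CpG-rich class the gap to the outermost starts narrowed, since these had 98.3% ± 0.210, 85.3% ± 1.51 and 26.9% ± 4.08, a mean difference of -5.52 percentage points over the libraries. Within the CpG-poor class the outermost starts had H3K4me3 in 46.2% ± 0.979, and the mean difference was -12.1 percentage points. Both differences were negative in all 6 libraries (exact permutation test, p = 0.03125 each, adjusted p = 0.0375). Read from the marks, 56.1% of the 3219 members with H3K4me3 in both replicates were CpG-rich, against 3.91% of the 4532 with it in neither. These classes were formed after the first comparison had been made.

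**Figure D4:**
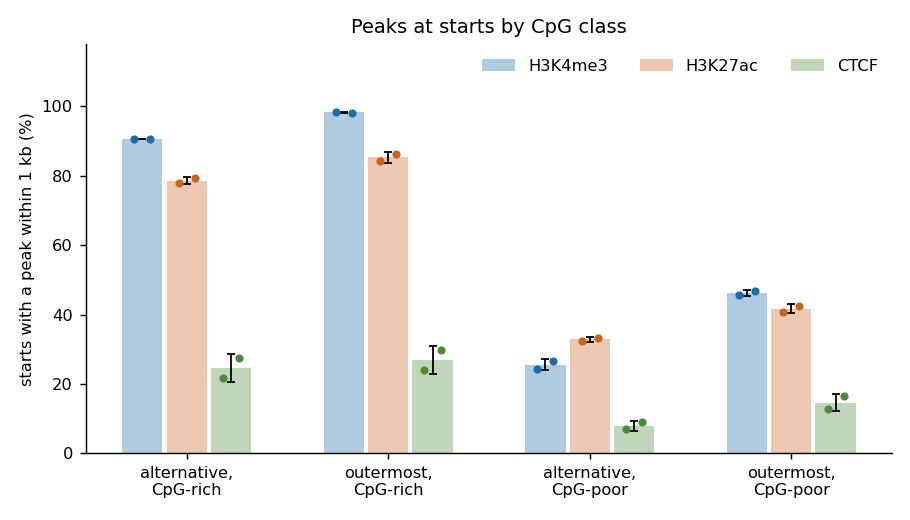
Share of starts with a peak within 1 kb, in percent, for CpG-rich and CpG-poor starts, alternative and outermost. Bars are means of 2 replicates with the SD and points are libraries. H3K4me3 reaches 90.7% at CpG-rich alternative starts and 25.6% at CpG-poor ones.

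The next 4 comparisons between kinds of member had the same direction in all 6 libraries, each with an exact sign-flip permutation p of 0.03125 (adjusted 0.0375). Since the libraries read the same starts, this p speaks of agreement between libraries. It does not tell whether a small difference exceeds the spread between starts. Members outside repeats had H3K4me3 in 50.4% ± 0.948, against 25.1% ± 1.69 of those in repeats, and over the libraries the difference was 16.6 percentage points. Members before the first coding base of their gene had 48.2% ± 0.881, against 37.0% ± 1.44 of those after it, with a mean difference of 8.45 points. Starts used by 2 or more annotated transcripts had 49.1% ± 1.78 against 40.6% ± 1.10, a mean difference of 5.39 points. Known transcripts did not stand higher, as their 439 starts had H3K4me3 in 39.0% ± 0.322 against 42.0% ± 1.25 for model starts, and the mean difference over marks was -3.26 points. Members in an exon of a longer transcript had 21.8% ± 0.0617 and those in an intron 45.1% ± 1.41, a pair for which no test was run. On chromosome X, 42.1% ± 1.40 of 304 members had H3K4me3 and 35.2% ± 1.40 had H3K27ac, against 41.8% ± 1.30 and 44.6% ± 0.669 on the autosomes. The autosomes were higher in 5 of 6 libraries, by a mean of 3.88 points (exact permutation test, p = 0.125, adjusted p = 0.125).

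Most members with one histone mark had the other too. Both histone marks in both replicates were found at 2676 members (33.4%), against 62.5% of all starts. H3K4me3 with no H3K27ac call in both replicates was found at 543 members (6.77%), the reverse at 675 (8.42%) and neither at 4127 (51.5%). At the outermost starts the 4 classes held 1846 (63.4%), 355 (12.2%), 55 (1.89%) and 655 (22.5%). Members with H3K27ac had H3K4me3 as well in 77.8% and 79.9% in replicates 1 and 2, whereas outermost starts with H3K27ac did in 96.7% and 96.8%. In the other direction members and outermost starts were close, with H3K27ac at 83.1% and 83.8% of the members with H3K4me3 and at 83.8% and 85.9% of such outermost starts. Of the 529 members with H3K27ac in both replicates and H3K4me3 in neither, 3.21% were CpG-rich, against 56.9% of the 2676 with both marks. CTCF was found at 20.02% and 24.96% of the members with H3K4me3 and at 4.16% and 5.18% of those without it. Of the 809 members with CTCF in both replicates, 617 (76.3%) had H3K4me3 in both, 173 (21.4%) had it in neither, and 122 had neither histone mark in either replicate.

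By gene, H3K4me3 was found at the outermost start alone in 1353 genes, at both places in 774, at an alternative start alone in 340 (11.7%) and at neither in 308. The other 136 genes had a call in only 1 replicate at one of the places. "Alone" means in both replicates at the one place and in neither at the other. For H3K27ac the counts were 929, 865, 334 and 551 genes, and for CTCF 447, 78, 313 and 1798. The outermost starts of the 340 genes were CpG-rich in 2.65%, against 71.6% in the 774 genes marked at both places. The share was also low in the 308 genes marked at neither place (5.19%) and at all 668 outermost starts with H3K4me3 in neither replicate (3.89%). It was thus not particular to the 340 genes. Of these 340 genes, 250 (73.5%) had a CpG-rich start among the marked members. The strongest member, of the peaks by which the genes were called, had a median fold enrichment of 42.4 and 21.0 in replicates 1 and 2. It was 37.1 and 19.7 in the genes marked at both places, whose outermost starts had 48.9 and 23.0. H3K27ac was also found at an alternative start alone in 227 of the 340 genes and at neither place in 63. In 1017 marked members of these genes, the median distance from the outermost start was 25.2 kb and 574 (56.4%) lay before the first coding base. Of the outermost starts of these genes, 0.882% began a known transcript.

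**Figure D5:**
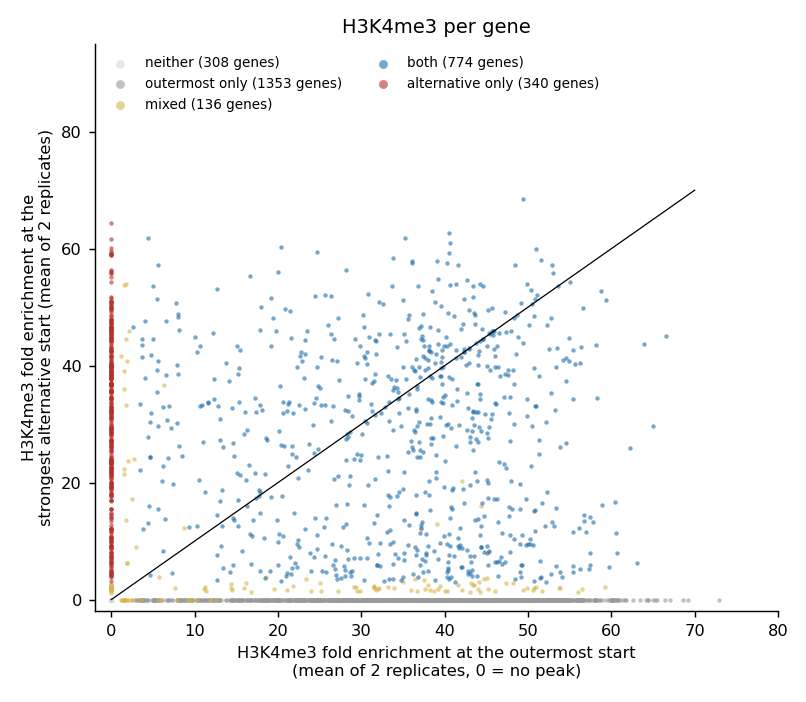
H3K4me3 fold enrichment of each of the 2911 genes at its outermost start (horizontal axis) and at its strongest alternative start (vertical axis), as the mean of 2 replicates with 0 for no peak, and a line where they are equal. The 340 genes with H3K4me3 at an alternative start alone stand on the vertical axis, and the 1353 with it at the outermost start alone on the horizontal one.

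The genes in which a member with both histone marks was highest, while the outermost start had neither, included ERCC6L2, IL1R1, AKIRIN2, MRPS22, ARHGAP28, PANK2 and ARHGAP5. They were picked by that value, which is given as a description. ERCC6L2, a helicase-like protein of DNA repair, had H3K4me3 at 71.8 and 47.3 fold in replicates 1 and 2 and H3K27ac at 35.2 and 35.0 fold, with the start 23.6 kb inside the gene at position 26241148 of chromosome 10. MRPS22, a protein of the mitochondrial ribosome, had H3K4me3 at 77.5 and 40.8 fold, 201.7 kb from its annotated outermost start. PANK2, a kinase of coenzyme A synthesis, had 73.9 and 37.9 fold, and ARHGAP5, a GTPase-activating protein, 63.9 and 37.9 fold. IL1R1, whose start is shown above, had 50.6 and 42.4 fold at a CpG-poor start, with the replicate 1 summit 1505 bp away. AKIRIN2, a nuclear factor of immune gene transcription, was the only one of the 7 named genes whose member began a known transcript, with 50.4 and 41.8 fold, 5.76 kb inside the gene. Across all genes, 703 members in 227 genes, or 301 regions, had both histone marks in both replicates with neither mark at the outermost start in either.

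Among 115 genes listed as known for several promoters, 68 held a member, in 216 regions. H3K4me3 was found in both replicates at 85 of these regions (39.4%), against 28.9% of all 5168 regions, and 32 genes had it at both places, 16 at an alternative start alone, 15 at the outermost alone, 4 at neither and 1 in a single replicate. The lists were drawn up with earlier results of these data known, and no test was made of them.

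In 14 genes of the cytoskeleton and adhesion, 24 of 51 regions (47.1%) had H3K4me3 in both replicates and 31 (60.8%) had H3K27ac, against 28.9% and 33.3% of all 5168 regions. These counts include 6 regions of PLEC, the plectin gene. All 6 had the same replicate 2 H3K4me3 peak and the same H3K27ac peaks. PALLD had no peak of any kind at its outermost start. Its region 112.0 kb inside the gene had H3K4me3 at 57.1 and 28.1 fold in replicates 1 and 2, and that at 263.4 kb had 65.6 and 33.5 fold. H3K27ac stood at 27.7 and 35.1 fold at the second of these. CALD1, which encodes the actin-binding caldesmon, likewise had no peak at its outermost start. Its CpG-poor start 34.7 kb inside had H3K4me3 at 49.6 and 22.0 fold and H3K27ac at 37.2 and 50.7 fold. A further CALD1 start at 145.0 kb had H3K4me3 at 27.5 and 18.2 fold. DST, a linker of the cytoskeleton, was marked at both places, with 65.1 and 29.7 fold at the outermost start and 63.5 and 28.0 fold at 107.7 kb. In DMD, 1 of 8 regions was marked. That region, the farthest of all members at 2467.8 kb, had H3K4me3 at 29.1 and 11.4 fold, above the 7.38 and 4.68 fold of the outermost start. TPM1, the gene of a tropomyosin, shows a limit of the count, since its member at 5.4 kb and its outermost start had the same wide peak, with 54.0 and 35.1 fold. Over all members, 54 and 58 shared their H3K4me3 peak with the outermost start in replicates 1 and 2. MYLK, the myosin light chain kinase, had no H3K4me3 or H3K27ac at any of its 4 alternative regions.

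Of the 37 regions of 10 signalling genes, 11 (29.7%) had H3K4me3 and 12 (32.4%) had H3K27ac, close to the shares over all regions. PDE4D, a phosphodiesterase that breaks down cAMP, had no peak at its outermost start or at 10 of its 13 regions. Its start 1221.7 kb inside the gene had H3K4me3 at 38.6 and 28.1 fold, and that at 1454.3 kb had 40.5 and 14.7 fold. In PDE4B, of the same family, a start at 508.9 kb had 30.8 and 32.9 fold and the outermost start 29.3 and 14.4 fold. NRG1, a growth factor of the EGF family, had 60.7 and 23.2 fold at 848.5 kb, together with CTCF at 36.2 and 47.5 fold, and 29.8 and 16.6 fold at its outermost start. IGF1, insulin-like growth factor 1, had no peak at its outermost start. At its CpG-poor region 14.4 kb inside, H3K4me3 stood at 16.6 and 10.2 fold and H3K27ac at 22.7 and 17.8 fold. The growth hormone receptor gene GHR had H3K4me3 at 68.8 and 27.4 fold at the outermost start and no call of either mark at its 4 alternative regions.

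Transcription factor genes held 65 regions in 20 genes, 23 (35.4%) with H3K4me3 and 27 (41.5%) with H3K27ac, against 28.9% and 33.3% of all regions. NR3C1 had H3K4me3 at 52.4 and 20.9 fold and H3K27ac at 36.7 and 39.0 fold at a region of 10 starts, 24967 bp inside the gene. Nothing was found at its outermost start. ESR1, the oestrogen receptor gene, had H3K4me3 without H3K27ac at 1 region, with 25.1 and 8.73 fold. TCF4, a basic helix-loop-helix factor, was marked at its outermost start and at all 4 regions, the last with 31.0 and 33.5 fold. Its regions at 182.2 and 184.7 kb shared 1 H3K4me3 peak of 17.2 and 12.5 fold. SOX6 had 20 starts in a single region 5.4 kb inside the gene, with H3K4me3 at 65.5 and 32.6 fold. Its outermost start had 47.3 and 33.5 fold. KLF12 had 59.4 and 22.3 fold at 195.7 kb, above the 5.75 and 5.50 fold of its outermost start. TP73 had 32.3 and 13.3 fold at its outermost start and no H3K4me3 call at its 4 regions.

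The matrix and metabolic lists were smaller. In 5 matrix genes, 2 of 6 regions had H3K4me3, those of VCAN, with 54.0 and 26.1 fold, and of COL9A1, a cartilage collagen, with 11.7 and 9.62 fold and no H3K27ac. In 10 metabolic genes, 12 of 26 regions (46.2%) had it. The share over all 5168 regions, for both lists, was 28.9%. LPIN1, the phosphatidate phosphatase lipin 1, had H3K4me3 at 49.3 and 24.0 fold at 53.0 kb and no peak at its outermost start. Its region at 54.4 kb shared this H3K4me3 peak and was counted as well. AGPAT4, an acyltransferase of phospholipid synthesis, had 54.9 and 34.5 fold at 9.9 kb. PFKFB3, which sets the level of a glycolytic activator, was higher at its alternative start, with 80.3 and 34.6 fold at 56.8 kb against 55.4 and 25.2 fold. GNAS, the gene of a stimulatory G protein subunit, had H3K4me3 at all 4 regions. The region at 12.8 kb had 41.5 and 17.1 fold and no H3K27ac, while the 3 from 44.4 kb on shared 1 peak of 38.8 and 23.4 fold and had H3K27ac at 15.8 and 15.3 fold.

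In 9 genes of neural and other tissues 13 of 31 regions (41.9%) had H3K4me3 and 5 (16.1%) had H3K27ac. Over all 5168 regions the shares were 28.9% and 33.3%. Of the 13 regions, 8 had H3K27ac in neither replicate. Over all members' regions, 238 of 1496 with H3K4me3 had no H3K27ac in either replicate. No test was made of this. The outermost starts of the 9 genes were similar, with H3K4me3 and no H3K27ac in 5 of 9, against 292 of all 2911. ROBO2, a receptor of axon guidance, had H3K4me3 at 40.5 and 22.3 fold and CTCF at 19.5 and 22.5 fold at a CpG-rich region 1072.7 kb inside the gene, with no H3K27ac. The synaptic adhesion gene NRXN3 had 30.6 and 14.6 fold at 1083.1 kb, again without H3K27ac, and NTM 29.5 and 18.5 fold at 566.6 kb. DLG2 and BDNF were exceptions. DLG2 had H3K4me3 at 5 of its 11 regions and H3K27ac at 3. The DLG2 outermost start had H3K27ac at 9.92 and 14.1 fold. BDNF, a neurotrophin, had H3K4me3 at 71.2 and 29.99 fold and H3K27ac at 15.2 and 19.1 fold at 21.0 kb. No H3K27ac was found at the BDNF outermost start.

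The most marked regions were 6 each in ARHGEF2, GRAMD1B and PLEC and 5 each in ABR, DLG2, DLGAP4 and EPB41L2. Several of these lay under 1 wide peak. In ARHGEF2, a guanine nucleotide exchange factor, 5 of the 6 regions shared a peak of 59.2 and 26.1 fold. In PLEC, 4 of the 6 regions shared 1 peak of 55.5 fold in replicate 1, and all 6 shared 1 of 25.6 fold in replicate 2. GRAMD1B showed more separate peaks, from 4.85 and 3.95 fold at 215.6 kb to 28.2 and 13.9 fold at 76.2 kb. Over all genes, 873 had 1 marked region, 193 had 2, 45 had 3 and 23 had 4 or more. Many annotated starts do not mean many marked ones. RXRA, a nuclear receptor, had 30 member starts in 16 regions, of which 4 had H3K4me3, 3 of them within 7.9 kb of an outermost start that had no histone peak. ADGRL2, an adhesion receptor, had 29 starts, 25 of them in 1 region at 446.9 kb with H3K4me3 at 72.2 and 33.8 fold, against 14.2 and 11.08 fold at the outermost start.

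The highest CTCF peaks at members lay in SH3GL3, ATP13A3, LINGO1, ADGRG1 and STX18, picked by that height. Short words of the CTCF motif core, namely AGGGGGC, its close variant AGGTGGC, the similar word AGATGGC and, as the last of them, AGAGGGC, each on either strand, were searched within 50 bases of the replicate 1 summit, and the word nearest to the summit is shown in capitals within 30 bases for 2 of these genes. No word was found in this window for SH3GL3 and ATP13A3.
ADGRG1 CTCF peak, chr6:19555301-19555330, strand +: ttagtccctgtAGAGGGCgccctggccaca
STX18 CTCF peak, chr8:5941843-5941872, strand -: gtcccatccactAGGTGGCgctctccacca
At least 1 word was found near 43.5% and 42.0% of the distinct CTCF summits at members in replicates 1 and 2, near 48.0% and 47.2% of all CTCF summits, and within 50 bases of 7.55% of the 6883 members with no CTCF and of 12.8% of all starts. SH3GL3, a gene of membrane curvature, had CTCF at 83.1 and 84.6 fold and no histone peak at a start that lies in an exon of a longer transcript. ADGRG1, an adhesion receptor, and STX18, a syntaxin of vesicle traffic, also had CTCF with no histone peak at the start, at 66.4 and 66.3 fold and at 65.2 and 80.8 fold. LINGO1, a membrane protein of neurons, had CTCF at 67.2 and 75.9 fold beside H3K4me3 at 31.1 and 17.5 fold. The replicate 1 CTCF summits of ADGRG1 and LINGO1 lay 1042 and 1016 bp from the start. The ADGRG1 sequence shown is thus not the sequence at its start. In ATP13A3, a transporter, CTCF at 71.2 and 83.6 fold stood beside both histone marks. The CTCF peaks at members, like those at outermost starts, were below CTCF peaks in general, with a median of 15.2 and 13.1 fold for distinct peaks in replicates 1 and 2, against 16.9 and 16.6 fold at outermost starts and 19.6 and 19.1 fold for all CTCF peaks.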

How the data were processed

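The authors mapped ChIP-seq reads with Bowtie2 and called narrow peaks with MACS2 in each library, after keeping uniquely mapped pairs and removing duplicates. For every peak the deposited lists hold the fold enrichment over the control (a ratio), the −log10 of its p and q, an integer score and the offset of its summit. The score was not used. The 2 input libraries were not analysed here. Starts came from RefSeq annotation release 106 of Sscrofa11.1. A start had a mark if a peak of the library lay within 1000 bp. Shares were computed per library and averaged over 2 replicates. Within-library differences were compared over 6 libraries by an exact two-sided permutation test of 64 sign flips, adjusted by Benjamini-Hochberg over 12 comparisons, most of which were chosen after the first values were seen. With 2 libraries the smallest p is 0.5, so single marks have no p. The lists hold no read counts, so no counting interval was computed. Python 3.11.15, pandas 2.3.3 and pysam 0.24.0 were used. Member finding, peak counting and the test were tested on simulated data. The members and gene lists were chosen with earlier results of these data known. Genes were named by membership of 6 lists, by the highest H3K4me3 or CTCF values, or by the number of starts and marked regions, and not all listed genes are described. The highest q in the lists ran from 0.0432 to 0.0499, above the threshold that the methods state, and all deposited peaks were kept. Some members that the naming rule selects are not reported here.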

Additional observations from a re-analysis of the deposited data

How the results depend on the processing

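The share difference, alternative minus outermost, was recomputed under each alternative and stayed negative in all of them, from -45.9 to -29.7 percentage points for H3K4me3, from -31.1 to -18.6 for H3K27ac and from -11.9 to -8.44 for CTCF. The values for H3K4me3 and H3K27ac moved by more than 1 SD to -36.0 and -24.4 with a window of 500 bp, -32.2 and -20.02 with 2 kb, -29.7 and -25.3 with the summit within 1 kb, -36.3 and -25.1 with peaks shared by replicates, -36.4 and -23.7 for members over 10 kb away, -31.5 and -18.6 in genes with an isolated outermost start, -45.002 and -30.4 with 1 member per gene, and -45.9 and -31.1 with starts merged and read at the most upstream one. The merged value for CTCF was -11.9. For H3K27ac the difference was -24.5 with a −log10 q of at least 5 and -23.4 with mRNA starts only. Merging starts and taking 1 member per gene moved H3K4me3 the most of these settings. Leaving out 1 replicate gave -35.2 to -33.9 for H3K4me3, -23.2 to -22.2 for H3K27ac and -10.5 to -8.65 for CTCF. The mean over libraries was -22.5 without replicate 1 and -22.0002 without replicate 2, where 3 libraries cannot give an exact permutation p under 0.25. The count of genes with H3K4me3 at an alternative start alone ran from 267 to 362. No paired analysis was possible because replicate numbers are shared only by libraries of different antibodies, which were not compared with each other. The 2 kinds of start were already compared within each library. The unknown depth limits what the absence of a peak shows.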
